A study of Mus musculus with 8 samples.

Results

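The ribosomal protein genes of the cytosolic ribosome were followed in mouse aorta during and after exposure to angiotensin II (AngII), a peptide hormone that raises blood pressure and drives vascular remodeling. Members were taken by name, as gene symbols made of Rpl or Rps with a number and at most 1 letter, or Rplp0, Rplp1, Rplp2 or Rpsa, with at least 10 counts summed over all libraries and without copies marked -ps. The pattern matched 83 of the 35896 genes, and 81 had enough counts. Rpl10l and Rpl6l were at 0 in every library, which allows up to 0.140 to 0.165 CPM (a gene's counts scaled to 1000000 counts in the library, with 3 counts as the limit for a library at 0). The filter on low counts left 79 members to test, 47 of the large and 32 of the small subunit, after Rpl39l and Rpl32l had been set aside with 0 to 2 counts in each library.

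All mice were male C57BL6, 11 weeks old when osmotic minipumps delivering AngII at 2.8 mg/kg/day were implanted for 2 weeks. Mice were sacrificed when the infusion ended (AngII), or 2 weeks (AngII+2W) or 3 weeks (AngII+3W) later, and untreated littermates of matched age served as controls (CTRL). Each group had 2 libraries, and each library held a part of the aorta from 2 mice pooled before extraction, so that p-values measure the spread between pools. The labels do not say which time points the mice of the 2 CTRL pools were matched to, and time after the infusion and age cannot be told apart among the AngII groups.

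A ribosome carries 1 copy of nearly every protein of its large and small subunits, and the acidic stalk proteins are the exception. The messenger RNAs of these proteins are short, abundant and share a 5′ pyrimidine tract (the TOP motif) through which mTORC1 controls their translation. Ribosomal protein genes are also known for many intronless copies scattered over the genome, and reads from a gene and from such a copy can be hard to separate. A few members have paralogs of restricted expression, such as Rpl3l in striated muscle.

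The table held between 18130441 and 21498200 counts per library. Members took 1.10% and 1.23% of all counts in CTRL, then 1.09% and 1.27% in AngII, then 1.10% and 1.07% in AngII+2W, and finally 0.871% and 1.07% in AngII+3W. The 95% Wilson interval of the lowest share was 0.867% to 0.875%, which covers counting error only. Both AngII+3W libraries lay below both CTRL libraries, while AngII and AngII+2W overlapped CTRL in this share of all counts. Replicate 1 of AngII+3W stood apart from the others in other ways as well. Mitochondrial transcripts took 18.3% of its counts against 8.15% to 13.5% in the other 7 libraries, and the 5 skeletal muscle markers summed to 1318 CPM against 4.73 to 73.3 CPM. The 5 cardiac muscle markers summed to 4546 CPM, also the highest, but CTRL replicate 1 came close at 3867 CPM. The lowest cardiac sum was 15.9 CPM. No marker of either list was at 0 in all libraries. With mitochondrial transcripts left out of the total, the members' share was 1.26% and 1.37% in CTRL, then 1.24% and 1.38% in AngII, then 1.25% and 1.21% in AngII+2W, and finally 1.07% and 1.24% in AngII+3W. All 7 smooth muscle markers were detected, and their sum was 7314 to 9320 CPM in CTRL, then 1732 to 2153 CPM in AngII, then 3507 to 3874 CPM in AngII+2W and 1878 to 3329 CPM in AngII+3W. Other marker sums also differed between groups. Fibroblast markers summed to 1237 to 2049 CPM in CTRL and 7804 to 12683 CPM in AngII, macrophage markers to 137 to 220 CPM and 437 to 554 CPM, and cycling markers to 19.9 to 23.1 CPM and 83.5 to 112 CPM. In AngII+3W, erythroid markers summed to 461 to 716 CPM against 2536 to 2636 CPM in CTRL, and Schwann cell markers to 101.3 to 108 CPM against 56.4 to 71.7 CPM. No marker of these lists was at 0 in all libraries, and their part in the results was not tested. In bulk tissue, fewer cells of a type and less RNA per cell cannot be told apart.

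The first coding bases of Rps27, of its intronless copy Rps27rt and of its paralog Rps27l are shown because the first pair cannot be told apart by coding sequence while the third can. The 60 bases run from the start codon in the GENCODE annotation of GRCm38, and capitals mark bases that differ from Rps27.
Rps27: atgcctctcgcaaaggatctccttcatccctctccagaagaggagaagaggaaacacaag
Rps27rt: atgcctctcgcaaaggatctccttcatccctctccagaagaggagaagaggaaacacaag
Rps27l: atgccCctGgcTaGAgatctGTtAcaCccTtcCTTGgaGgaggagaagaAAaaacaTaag
Rps27 lies on chromosome 3 at 90212522 to 90213651 (minus strand), Rps27rt on chromosome 9 at 114982366 to 114982739 (minus strand) and Rps27l on chromosome 9 at 66946086 to 66949516 (plus strand). Over these 60 bases Rps27l differed from Rps27 at 18, and Rps27rt was identical to Rps27 over the whole coding sequence.

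The promoter stretches of 6 members are shown because they differ in runs of C or T near the RefSeq start. Each stretch spans 30 bases before to 20 bases after that start (GRCm38.p6), and capitals mark runs of at least 7 C or T. The stretch of Rpl37 ends before the GENCODE gene start (5116645), and the marked run of Rpl34 lies before its RefSeq start. Whether the marked runs are TOP motifs at the 5′ end of the messenger RNA was not tested. Rpl37, Rpl34 and Rps26 had among the smallest p for a lower level in AngII+3W, Rps24 and Rpl22 had values above CTRL there, and Rps6 is the substrate of the S6 kinases.
Rpl37: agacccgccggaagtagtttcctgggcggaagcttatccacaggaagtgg
Rpl34: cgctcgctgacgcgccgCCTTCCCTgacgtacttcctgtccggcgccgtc
Rps26: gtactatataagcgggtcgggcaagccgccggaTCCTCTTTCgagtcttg
Rps24: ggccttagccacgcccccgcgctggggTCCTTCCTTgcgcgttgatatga
Rpl22: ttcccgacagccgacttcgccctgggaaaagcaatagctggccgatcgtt
Rps6: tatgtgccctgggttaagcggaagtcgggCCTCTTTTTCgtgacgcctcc
These lie at chr15:5116583-5116632 (plus strand), chr3:130730379-130730428 (minus), chr10:128626487-128626536 (minus), chr14:24490648-24490697 (plus), chr4:152325696-152325745 (plus) and chr4:86857348-86857397 (minus), in the order given. RefSeq promoters were found for 58 of the 79 tested members. A run of at least 7 C or T on the coding strand lay within 40 bases of the start in 47 of these 58 (81.0%), against 42.8% of all 27025 promoters. The letters CCGGAAG, the core of a binding motif of ETS factors, were present on either strand of the 300 bases in 23 of 58 (39.7%) against 9.1% of all promoters. AAGATGG, part of the YY1 motif, was found on either strand in 8 of 58 (13.8%) against 6.5%. The median log2 fold change of AngII+3W against CTRL was -0.22 over the 47 members with a pyrimidine run and -0.255 over the 11 without.

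Members differed widely in level per length. On the scale of CPM per 1000 bases of the longest protein-coding transcript, averaged over all libraries, Rps29 was highest (439), followed by Rpl23a (370), Rplp1 (327), Rpl41 (325) and Rps2 (315). Rps29 and Rps2 are small subunit proteins, and Rpl41 is the smallest protein of the ribosome. The lowest tested members were Rpl3l (1.26), Rpl12 (8.13), Rpl5 (11.8), Rps4l (14.1) and Rps15a (14.5). This order depended on how the length and the copies were treated. With the coding sequence as the length and the counts of near-identical copies added, Rpl41 (1369) and Rps29 (1019) led and Rpl5 reached 233, while Rpl3l stayed lowest at 1.42. Rps4l, which the annotation lists as a transcribed processed pseudogene, shared 79.6% of its 789 bases with the coding sequence of Rps4x.

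Near-identical copies, with at least 95% identity over at least 80% of the coding sequence, were found for 70 members, and for 13 of them the copies held over 10% of the family's counts. Rps27, a zinc-finger protein of the small subunit, was the clearest case. Its own row held 24.1 and 5.79 CPM in CTRL, 2.43 and 54.5 CPM in AngII, then 2.89 and 4.67 CPM in AngII+2W, and finally 32.6 and 8.60 CPM in AngII+3W. The 2 AngII libraries held the lowest and the highest of the 8 values. The Rps27rt row ran opposite, with 100.8 and 129 CPM in CTRL and 125 and 66.5 CPM in AngII. Summed over the family, the level was 125 and 134 CPM in CTRL, 127 and 121 CPM in AngII, then 133 and 120 CPM in AngII+2W, and finally 100.5 and 106 CPM in AngII+3W, so that the libraries of AngII lay closer together than on the own row. The family's log2 fold change in AngII+3W against CTRL was -0.33 (edgeR's quasi-likelihood test, FDR 0.318).

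**Figure D1:**
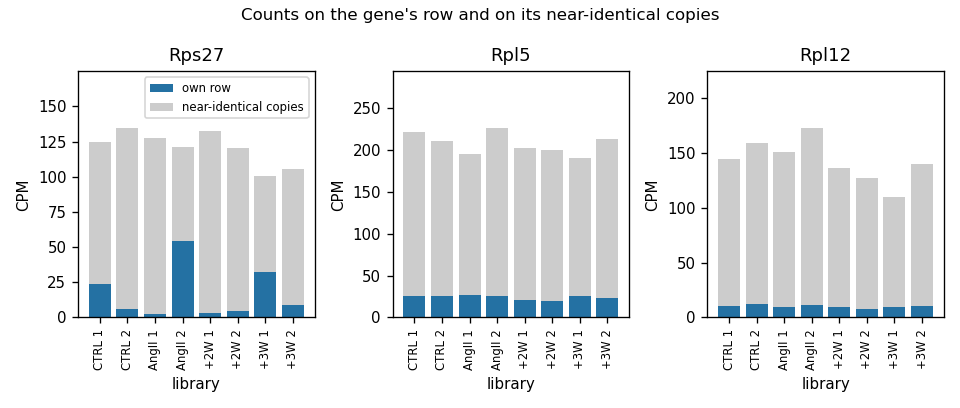
CPM of Rps27, Rpl5 and Rpl12 in each of the 8 libraries, split into the gene's own row (blue) and its near-identical copies (grey, stacked). The own row of Rps27 varies from 2.43 to 54.5 CPM within AngII while its family total stays at 127 and 121 CPM.

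Rpl5 and Rpl12 also sat mainly on copies. Rpl5, which binds 5S rRNA together with Rpl11, shares its whole coding sequence with Gm15500, a transcribed pseudogene on chromosome 7, and copies held 88.4% of the family's counts. Rpl12, a protein at the base of the stalk, does so with Gm10275 on chromosome 10, and copies held 92.9%. Copies of Rpl10, a large subunit protein near the catalytic center, took 85.3%, mostly on Rpl10-ps3 of chromosome 9.

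The first comparison asked what 2 weeks of AngII did to these genes, and the data show no shift of the group. The median log2 fold change of AngII against CTRL was 0.00 (-0.00057), with 39 members above 0 and 40 below (51% of all genes were below), against a median of -0.0085 over all 17182 genes tested. No member passed FDR 0.05 in edgeR, where 5.1% of all genes did, and DESeq2 (9.45% of all genes) and limma-voom (4.89%) also called 0 members. Both AngII libraries were below both CTRL libraries in 8 members (24.9% of all genes) and above them in 15 (24.4%). At an unadjusted p below 0.05, 1 member was higher (10.9% of all genes) and 1 was lower (9.29% of all genes). The 95% interval of a typical member reached 0.31 to either side on the log2 scale, a 1.24-fold change, before any adjustment for the number of genes. Under offsets for GC content and length, 61 members were below 0, with a median of -0.08.

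Rps4l had the smallest p for a higher level in AngII. It measured 12.3 and 11.3 CPM in CTRL, 17.9 and 15.4 CPM in AngII, then 12.7 and 14.2 CPM in AngII+2W, and finally 9.78 and 13.1 CPM in AngII+3W. Both AngII libraries lay above all others, with a log2 fold change of 0.50 ± 0.18 (SE, edgeR FDR 0.180). Rpl39, a small protein of the exit tunnel, followed at 71.0 and 67.1 CPM in CTRL against 81.5 and 84.2 CPM in AngII (0.26 ± 0.14, edgeR FDR 0.367). Rps27a, made as a fusion with ubiquitin, had a log2 fold change of 0.17 (edgeR FDR 0.489). On the lower side stood Rpl37, a zinc-binding protein of the large subunit, at -0.30 (edgeR FDR 0.215), Rpl30 at -0.23 (edgeR FDR 0.344) and Rpl28 at -0.24 (edgeR FDR 0.425). None of these passed the test.

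In AngII+2W, most members had values somewhat below CTRL without any passing the test. The median log2 fold change was -0.11, a fold of 0.929, and 68 of 79 members were below 0, as were 50% of all genes. Both AngII+2W libraries lay below both CTRL libraries in 40 members (22.2% of all genes) and above them in 3 (21.7% of all genes). EdgeR called 0 members at FDR 0.05, as it called 0 genes in all (0%), and DESeq2 (2.17% of all genes) and limma-voom (0%) also called 0 members. At an unadjusted p below 0.05, 1 member was lower (6.18% of all genes) and 0 were higher (4.52%). Under GC and length offsets the median was -0.05, with 57 members below 0.

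That member was Rpl5, at 26.1 and 25.4 CPM in CTRL, 26.8 and 25.2 CPM in AngII, then 20.4 and 20.03 CPM in AngII+2W, and finally 25.6 and 22.8 CPM in AngII+3W. Both AngII+2W libraries were below the other 6, with a log2 fold change of -0.35 ± 0.12 against CTRL (SE, edgeR FDR 0.368). With its copies added, the value was -0.10 (edgeR FDR 0.855). Rpl12 had -0.43 ± 0.19 on its own row (edgeR FDR 0.476) and -0.21 with its copies (edgeR FDR 0.712). Rpl36a had -0.29 ± 0.12 (edgeR FDR 0.477). Rpl11, which with Rpl5 forms the 5S particle that restrains Mdm2, showed 148 CPM in both AngII+2W libraries between its CTRL values of 144 and 162 CPM.

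In AngII+3W the values were lower across nearly the whole family, by a small amount. The median log2 fold change against CTRL was -0.23, a fold of 0.851, against 0.03 over all genes tested, and 75 of 79 members were below 0 (46.4% of all genes). The large subunit had a median of -0.24 (45 of 47 below 0) and the small subunit -0.22 (30 of 32 below 0). Both AngII+3W libraries lay below both CTRL libraries in 65 members (18.3% of all genes) and above them in 0 (19.8% of all genes). No member passed FDR 0.05 in edgeR (0.285% of all genes) or in limma-voom (0.256%), while DESeq2 called 1 member, Rpl37, lower (3.7% of all genes called). At an unadjusted p below 0.05, edgeR counted 16 members lower, 10 of the large and 6 of the small subunit, against 7.18% of all genes, and 0 higher (5.34% of all genes). Under GC and length offsets the median over all members was -0.18, with 74 members below 0.

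This difference was uneven between the 2 AngII+3W libraries. The median deviation of the members from their mean over all libraries, on the scale of log2(CPM + 0.5), was 0.04 and 0.14 in CTRL, then 0.02 and 0.15 in AngII, then 0.03 and -0.07 in AngII+2W, and finally -0.22 and -0.07 in AngII+3W. The pooled SD of these medians within groups was 0.0862. Replicate 1 of AngII+3W, the library rich in skeletal muscle and mitochondrial transcripts, was the lowest of 8 for 60 members, and CTRL replicate 2 was the highest for 36. The share of all genes that were lowest or highest in these libraries was not counted. Without AngII+3W replicate 1 the median log2 fold change was -0.17, with 74 members below 0. Without CTRL replicate 2 it was -0.18 and without AngII+3W replicate 2 it was -0.37, each with 76 below 0. It was -0.24 without AngII replicate 2, and -0.265 without AngII replicate 1 or without either AngII+2W library. The count of members lower at an unadjusted p below 0.05 also moved with the library left out. Each of these fits leaves 1 library in a group, so those counts are not given. The part of muscle or mitochondrial transcripts in the difference was not tested beyond these values.

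**Figure D2:**
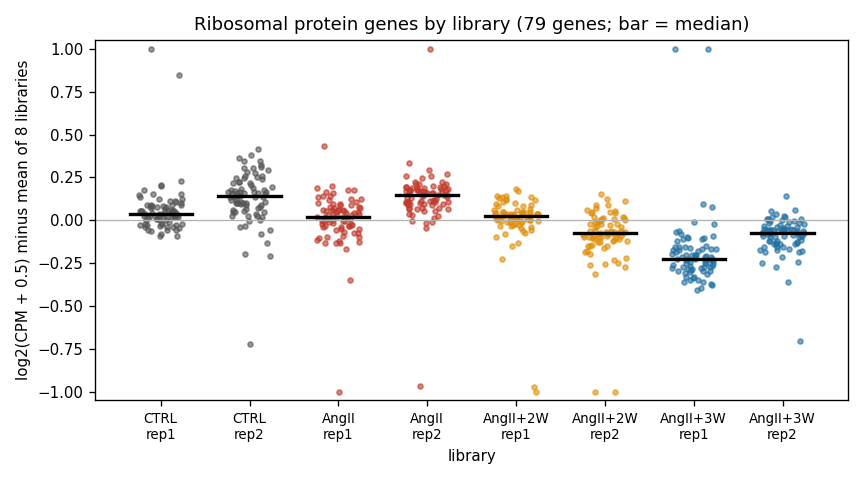
Deviation of each of the 79 tested members from its mean over the 8 libraries, on the scale of log2(CPM + 0.5), by library, with points beyond 1 drawn at 1 and the median as a bar. The medians are 0.04 and 0.14 in CTRL and -0.22 and -0.07 in AngII+3W.

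Rpl37 had the smallest p. Its levels were 55.1 and 62.8 CPM in CTRL, 45.8 and 49.7 CPM in AngII, then 54.9 and 49.4 CPM in AngII+2W, and finally 39.3 and 37.9 CPM in AngII+3W. The AngII+3W libraries were below the other 6, and the log2 fold change against CTRL was -0.61 ± 0.12 (SE, 95% interval -0.89 to -0.33, FDR 0.0948 in edgeR and 0.0116 in DESeq2). A copy held 14.5% of the family's counts, and with it the value was -0.58 (edgeR FDR 0.111).

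Rpl34, a large subunit protein, varied little within groups. It measured 70.0 and 70.8 CPM in CTRL, 75.4 and 75.5 CPM in AngII, then 68.4 and 66.5 CPM in AngII+2W, and finally 51.9 and 54.6 CPM in AngII+3W. The last 2 libraries again lay below the other 6, with a log2 fold change of -0.40 ± 0.10 against CTRL (SE, 95% interval -0.65 to -0.16, edgeR FDR 0.168). Copies held 0.15% of the family's counts.

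Rps29, a zinc-binding protein of the small subunit head, measured 181 and 220 CPM in CTRL, 166 and 182 CPM in AngII, then 181 and 159 CPM in AngII+2W, and finally 128 and 150 CPM in AngII+3W. Its AngII+3W libraries lay below all others, and the log2 fold change was -0.53 ± 0.16 (SE, edgeR FDR 0.223). Rps26, which lines the mRNA exit channel, had 112 and 121 CPM in CTRL against 86.9 and 87.5 CPM in AngII+3W. Rpl10a had 98.2 and 105 CPM in CTRL against 67.8 and 80.3 CPM in AngII+3W, with a log2 fold change of -0.46 (edgeR FDR 0.287). The smallest ribosomal protein, Rpl41, had -0.38 (edgeR FDR 0.379).

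Members with well-known separate roles had values below CTRL in AngII+3W that did not pass the test. The stalk proteins Rplp0, Rplp1 and Rplp2, which recruit translation factors, had log2 fold changes of -0.24, -0.37 and -0.33 in AngII+3W against CTRL (edgeR FDR 0.521, 0.386 and 0.461). Rps6, the phosphorylation target of the S6 kinases, had 214 and 221 CPM in CTRL and 176 and 197 CPM in AngII+3W (-0.22, edgeR FDR 0.534). Rpsa, which also serves as a laminin receptor, had -0.26 (edgeR FDR 0.502), and Rps19, mutated in Diamond-Blackfan anemia, had -0.12 (edgeR FDR 0.774). Rpl38, Rpl13a, Rpl32, Rpl11, Rpl5 and Rpl3 lay between -0.30 and -0.09.

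The 4 members above CTRL in AngII+3W did not pass the test. Rps24 measured 243 and 249 CPM in CTRL and 246 and 276 CPM in AngII+3W (0.09, edgeR FDR 0.829), and Rpl22, which has a paralog in Rpl22l1, measured 67.9 and 58.1 CPM against 63.9 and 67.7 CPM (0.06, edgeR FDR 0.885). The others were Rps27, whose row ran opposite to that of Rps27rt, and Rpl3l. How reads were assigned between the rows of Rps27 and Rps27rt was not tested. Rps27l, the paralog regulated by p53, was near 0 at -0.03 (edgeR FDR 0.952).

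**Figure D3:**
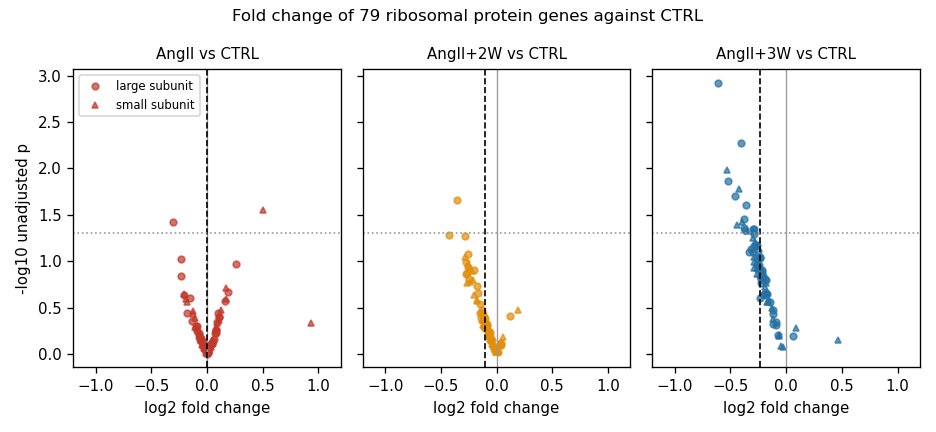
Log2 fold change (x axis) against -log10 of edgeR's unadjusted value (y axis) for the tested members in AngII, AngII+2W and AngII+3W against CTRL, with the median as a dashed line and the level of 0.05 as a dotted line. Rpl3l (all panels) and Rps27 (AngII+2W) lie beyond the x axis, and the medians are 0.00, -0.11 and -0.23.

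Set against AngII, the AngII+3W group again had lower values in most members, in a comparison that shares its AngII+3W libraries with the one against CTRL. The 3 comparisons with CTRL share the CTRL libraries. The median log2 fold change was -0.21, with 77 of 79 members below 0 (46% of all genes), and both AngII+3W libraries were below both AngII libraries in 56 members (24.2% of all genes) and above them in 0 (24.8%). EdgeR called 0 members (1.61% of all genes) and limma-voom 0 (1.67%), and DESeq2 called 1 member, Rpl34, lower (5.63% of all genes called). At an unadjusted p below 0.05, edgeR counted 15 members lower (10.4% of all genes) and 1 higher (7.41%). Rpl34 had -0.50 ± 0.10 (SE, edgeR FDR 0.0641, DESeq2 FDR 0.0139), Rps26 -0.44 ± 0.14 (edgeR FDR 0.159) and Rplp0 -0.43 ± 0.14 (edgeR FDR 0.167). Rplp0, often used as a reference gene, measured 300.3 and 302 CPM in CTRL, 318 and 368 CPM in AngII, then 283 and 267 CPM in AngII+2W, and finally 242 and 268 CPM in AngII+3W. With offsets for GC content and length the median was -0.12, with 72 members below 0 and 3 lower at an unadjusted p below 0.05. The share of all genes lower at that level was not counted in this fit. The median was -0.36 without AngII+3W replicate 2 and -0.32 without AngII replicate 1. It was -0.17 without AngII+3W replicate 1, -0.16 without AngII replicate 2 and -0.235 without either AngII+2W library. The count of 15 members lower at an unadjusted p below 0.05 also moved with the library left out. Those counts are not given, since each of these fits leaves 1 library in a group.

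**Figure D4:**
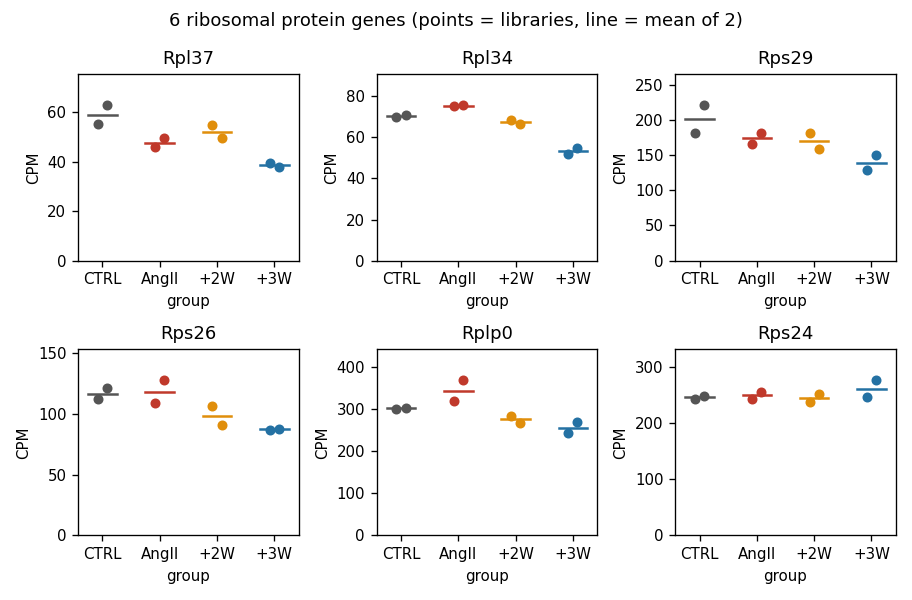
CPM of 6 members by group, with each library as a point and the mean of 2 libraries as a line, on axes that start at 0. Rpl37, Rpl34, Rps29, Rps26 and Rplp0 have their lowest means in AngII+3W, and Rps24 does not.

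AngII+2W against AngII had a median of -0.11, with 68 members below 0 (50.4% of all genes), and AngII+3W against AngII+2W had -0.13, with 72 below 0 (47.9% of all genes). EdgeR called 0 members in both (0.163% and 0% of all genes), as did DESeq2 (3.99% and 1.31%) and limma-voom (0.0873% and 0%). At an unadjusted p below 0.05, 1 member was lower (8.45% of all genes) and 0 higher (6.57%) in the first, and 2 were lower (4.22%) and 1 higher (4.62%) in the second. With offsets for GC content and length, the median of AngII+2W against AngII was 0.0077, with 44 members above 0 and 35 below. It was -0.03 without AngII replicate 2, -0.07 without AngII+2W replicate 2, -0.17 without AngII replicate 1 and also -0.17 without AngII+2W replicate 1. The median of AngII+3W against AngII+2W was -0.049 without AngII+3W replicate 1, with 62 members below 0, then -0.26 without AngII+3W replicate 2 and -0.19 without AngII+2W replicate 2. No single member differed past the test between AngII+2W and AngII+3W. Rpl37 and Rpl34 had the smallest p between 3 and 2 weeks for a lower level (-0.43 and -0.34, edgeR FDR 0.391 and 0.403).

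Rpl3l, the striated muscle paralog of Rpl3, had its highest level in a single library. It measured 1.75 and 1.18 CPM in CTRL, 0.486 and 0.142 CPM in AngII, then 0.140 and 0 CPM in AngII+2W, and finally 9.94 and 0.269 CPM in AngII+3W. Both AngII+2W libraries and replicate 2 of AngII were at or under the limit of 3 counts, while replicate 1 of AngII+3W was far above the rest. The same library held the highest cardiac and skeletal marker sums given above, and the cardiac sums of AngII+2W, 145 and 15.9 CPM, included the lowest. Its log2 fold change in AngII+3W was 1.80 against CTRL (edgeR FDR 0.581) and 4.03 against AngII (edgeR FDR 0.201). Rpl3, whose coding sequence is 73.2% identical, measured 246 and 263 CPM in CTRL, 245 and 283 CPM in AngII, then 251 and 261 CPM in AngII+2W, and finally 208 and 261 CPM in AngII+3W, and its groups overlapped.

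**Figure D5:**
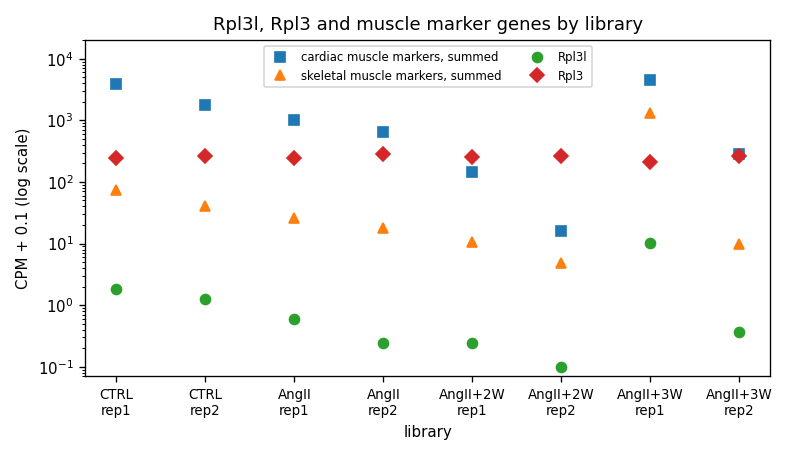
CPM + 0.1 on a log axis for Rpl3l, Rpl3 and the summed cardiac and skeletal muscle markers in each library. Rpl3l reaches 9.94 CPM in replicate 1 of AngII+3W, where the skeletal markers sum to 1318 CPM, while Rpl3 stays between 208 and 283 CPM.

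Ribosomal proteins whose names fall outside the pattern had values in the same range. Fau, the precursor of Rps30, had a log2 fold change of -0.27 in AngII+3W against CTRL (edgeR FDR 0.576), and Rpl36al had -0.32 (edgeR FDR 0.317). Rack1, a scaffold on the small subunit, measured 155 and 162 CPM in CTRL against 114 and 152 CPM in AngII+3W.

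Other genes of the translation machinery were described by lists. The 78 mitochondrial ribosomal proteins had medians of -0.03 in AngII, then -0.07 in AngII+2W and also -0.07 in AngII+3W against CTRL, and 0 passed the test. The 17 elongation factors and other genes with TOP mRNAs had medians of -0.03, -0.02 and -0.07, also with 0 calls. The 31 initiation factors had medians of 0.02, -0.06 and -0.08, with 0 calls. Beside these, the cytosolic ribosomal proteins had a median of -0.23 in AngII+3W, and the difference between the lists was not tested.

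Ribosome biogenesis factors, which assemble the subunits in the nucleolus, lay mostly below CTRL in all 3 AngII groups. Among 45 factors, 30 were below 0 in AngII with a median of -0.04, 39 in AngII+2W with a median of -0.20, and 31 in AngII+3W with a median of -0.11. Sbds, needed to release Eif6 from the large subunit, was the single one past the test, with a log2 fold change of -0.47 ± 0.10 in AngII (edgeR FDR 0.0431), in a comparison where 5.1% of all genes passed. This call was lost in 10 of 21 alternative fits, among them those without either library of CTRL, AngII or AngII+2W (FDR 0.112 to 0.264). At an unadjusted p below 0.05, 10 of the 45 factors were lower in AngII+2W (6.18% of all genes), and 0 passed the test. Heatr1 and Rrp12, which act in processing of the small subunit, had the smallest p in AngII+2W (-0.50 and -0.68, edgeR FDR 0.301 and 0.313). RNA polymerase I and its factors (14 tested) had medians of -0.05, -0.10 and 0.01, with 0 calls, and Taf1a, a subunit of its selectivity factor, had -0.77 in AngII (edgeR FDR 0.0747).

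Of 21 genes of mTORC1 and its regulators, 1 passed the test. Ddit4, an inhibitor of mTORC1 induced by stress and glucocorticoids, fell by 1.11 on the log2 scale in AngII+3W (SE 0.14, edgeR FDR 0.0455), where 0.285% of all genes passed. The call was lost in 11 of 21 alternative fits, with log2 fold changes of -1.24 to -0.96 over all of them. It was lost without CTRL replicate 1 (FDR 0.237), without AngII+3W replicate 1 (FDR 0.111), without either library of AngII or AngII+2W (FDR 0.106 to 0.115), with the replicate block (FDR 0.0743), with offsets for GC content and length (FDR 0.0578) and with only the 2 groups compared (FDR 0.239). Sesn2, another inhibitor of mTORC1, had -1.25 ± 0.22 in AngII+3W (edgeR FDR 0.0700) and -0.84 in AngII+2W (edgeR FDR 0.291). Already in AngII, Ddit4 had -0.50 (edgeR FDR 0.0804) and Eef2k had -0.62 (edgeR FDR 0.140). Pdcd4 went the other way, at 0.44 in AngII+2W (edgeR FDR 0.305). The list's medians were -0.17, -0.09 and -0.10 in AngII, AngII+2W and AngII+3W.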

How the data were processed

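RNA of aortic tissue was sequenced after depletion of ribosomal RNA. The authors estimated transcript abundance with Salmon and summed it to genes, and the deposited expected counts are whole numbers without normalization. The group and replicate number of each library came from its label. Members and gene lists were chosen with earlier results of these data known.

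All 8 libraries were fitted in 1 model with edgeR 4.0.16 in R 4.3.3 (filterByExpr, TMM, quasi-likelihood F test, 4 residual degrees of freedom), and two-sided p-values were adjusted over 17182 genes by the Benjamini-Hochberg method (FDR, threshold 0.05). With 2 libraries in each group, the smallest p of an exact permutation test is 0.33. Replicates differed by more than sampling noise (chi-square per degree of freedom 12.5 to 86.8). Genes named were, in each comparison, the 3 members with the smallest p in each direction, the 5 highest and lowest per length, members fixed by role and paralogs, and the 2 genes of each list with the smallest p. Copies were searched with BLAST 2.17.0 in GENCODE transcripts (GRCm38), and 98.7% of gene identifiers matched this annotation. Promoters are from RefSeq. Alternatives were other scalings, filters, DESeq2 1.42.0, limma-voom (limma 3.58.1), a replicate term, GC and length offsets, summed copies, and leaving out each library.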

Additional observations from a re-analysis of the deposited data

How the results depend on the processing

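Of 510 alternative values, 490 counted as the same, 18 moved further and 2 became past the threshold. The same means keeping direction and side of the threshold for a named gene, or an unchanged count of members called. For a group's share of counts it means moving by no more than the SD of that group. For a median it means moving by no more than the spread between replicates (0.0862). No member was called in the main fits, so no call of a member could be lost or change sign. Medians that changed sign within that spread, as in AngII against CTRL, also counted as the same. DESeq2 called 1 member in AngII+3W against CTRL and 1 in AngII+3W against AngII, where Rpl37 (-0.62) and Rpl34 (-0.52) passed. With offsets for GC content and length, the median log2 fold change was 0.0077 in AngII+2W against AngII and -0.12 in AngII+3W against AngII, and with the replicate block added 0.0090 and -0.12. Leaving out 1 library gave medians of -0.08 to 0.06 in AngII against CTRL, -0.17 to -0.06 in AngII+2W against CTRL, -0.37 to -0.17 in AngII+3W against CTRL, -0.17 to -0.03 in AngII+2W against AngII, -0.36 to -0.16 in AngII+3W against AngII and -0.26 to -0.049 in AngII+3W against AngII+2W. The -0.37, -0.36 and -0.26 came without AngII+3W replicate 2, and -0.32 in AngII+3W against AngII without AngII replicate 1. The number of members called stayed at 0 in these fits, except 1 (Rpl3l, higher) in AngII+3W against AngII and 1 (Rpl3l) against AngII+2W without AngII+3W replicate 2, where the lone library is assumed to vary like the other groups. The cause of these moves was not tested.

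The replicate number as a block left 0 members called in the comparisons with CTRL, with medians of -0.00058, -0.10 and -0.23. The numbers do not pair the mice, since libraries of the same number come from different animals, and the replicate differences of all genes correlated between groups at -0.01 to 0.32, and those of the members at -0.76 (CTRL with AngII) to 0.58 (CTRL with AngII+3W). Without mitochondrial genes in the total, the mean share of the members came to 1.15% for AngII+3W, 1.23% for AngII+2W, 1.31% for AngII and 1.32% for CTRL. The share counted as moved in every group. Of the 5 highest members per length, 3 stayed with the union of exons as the length and 2 with coding length and copies, which was chosen after the data were seen, as was summing the copies. With 2 pools a group, the unadjusted 95% interval of a typical member spanned 1.24-fold to either side.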
